A study of Mus musculus with 31 samples.

Results

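The striatal projection neuron genes Drd2, Adora2a, Ppp1r1b, Rgs9, Penk, Tac1 and Pde10a were followed in mouse brains after an injection of oleic acid or serum. The 7 genes were chosen by name among the 25203 genes tested, and all 7 were measured. The arrays came from 31 female C57BL/6 mice aged 6 weeks, 1 mouse and 1 single-colour (Cy3) Agilent array each, with no pooling stated in the labels. Under xylazine and ketamine anaesthesia, each mouse received 200 µl in the tail vein. In 17 mice it was oleic acid, a fatty acid that produces acute lung injury, dosed by weight (1.2 µl for each gram), and it was physiological serum in 14 mice. Brains were taken 1, 1.5, 3, 4, 18 or 24 h later. Oleic acid groups held 3 mice at each time except 18 h, with 2. Serum groups held 3 mice at 1 and 1.5 h and 2 mice at 3, 4, 18 and 24 h.

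The striatum is the input station of the basal ganglia, and nearly all of its neurons are GABAergic projection neurons of a pair of types. Direct-pathway neurons carry the D1 dopamine receptor and make substance P and dynorphin, while indirect-pathway neurons carry the D2 receptor and the adenosine receptor encoded by Adora2a and make enkephalin. Both types use the same cyclic AMP machinery, in which dopamine and adenosine receptors act through adenylyl cyclase, DARPP-32 and phosphodiesterase 10A. In a whole brain these transcripts come mostly, though not exclusively, from the striatum, and Penk, Tac1 and Drd2 are also made in other regions.

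Each gene was read by 60-base probes, and every value below is the log2 of the processed Cy3 signal of 1 probe minus the log2 of the array's 75th percentile. A value of 1 thus means a signal 2 times the 75th percentile, and differences of 1 are 2-fold. Levels of different probes were not compared, since probes differ in binding. The last 30 bases of the 7 probes are shown, 5′ to 3′, because they give the stretch of transcript that each value stands for, with AATAAA, the core letters of the polyadenylation signal, in capitals.
Drd2: ccaccagtcctctacagcgccttcacatgg
Adora2a: ccctgagataaAATAAAatgagccacactg
Ppp1r1b: acacagtggggggagcctggttctccttgt
Rgs9: aaaacAATAAAagggtcacctggagaaatt
Penk: atctctcctgacgaaacatcAATAAAtgct
Tac1: ttgtatgatgtgttgtgatagctaccattt
Pde10a: ctacaggtatgctctttcagtctatctggg
The letters stood in 3 of the 7, those of Adora2a, Rgs9 and Penk, and in 9.65% of all 35498 probes kept (this strand only). On the mm9 build of the array annotation these 30 bases lie at chr9:49215077-49215106 for Drd2, chr10:74797491-74797520 for Adora2a, chr11:98218995-98219024 for Ppp1r1b and chr6:7512923-7512952 for Tac1, all on the plus strand. For Pde10a they lie at chr17:9175025-9175054 on the plus strand, and on the minus strand at chr11:109086669-109086698 for Rgs9 and chr4:4060724-4060753 for Penk. The annotation ties the probes to the transcripts of these genes, and no exon or UTR annotation of that build was used here.

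All 7 probes were well above background on 31 of 31 arrays. The genes had 11 probes in all, 10 of them kept. Of the Rgs9 probes, a pair for transcript NM_011268 shared 54 bases and correlated at r = 0.97 over arrays. The third, for NM_001165934, was dim at a mean of -2.58 and correlated with the probe used at r = 0.32. The 2 kept probes of Pde10a correlated at r = 0.94, and its last probe was above background on 0 arrays.

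The arrays differed widely in the signal of cerebellum genes. The mean of 13 of 14 cerebellum genes measured, among them Gabra6, a GABA receptor subunit of granule cells, separated the arrays into 10 with values between -1.10 and 0.55 and 21 with values between 1.33 and 2.67. Gabra6 lay between -7.59 and -0.84 in the 10 and between 0.49 and 2.32 in the other 21. Whether the dissections differed is not stated in the labels. The 10 arrays were 5 of oleic acid and 5 of serum mice: oleic acid 1.5 h replicates 1 and 2, oleic acid 3 h replicates 1 and 3, oleic acid 4 h replicate 3, and serum 1 h replicate 1, 1.5 h replicate 3, 3 h replicate 1, 4 h replicate 2 and 18 h replicate 1. A list of 6 of 10 measured pituitary genes was also split, with values up to 2.74 in oleic acid and 2.93 in serum brains against medians of -2.80 and -3.09. Neuronal transcripts were well measured: all 10 pan-neuronal genes, such as Snap25, were measured, and their mean lay between 5.21 and 5.62 in oleic acid brains and between 5.25 and 5.59 in serum brains. Arrays lay on 5 slides, each with its own scan time, and the 75th percentile of intensity ranged from 306 to 813.

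**Figure D1:**
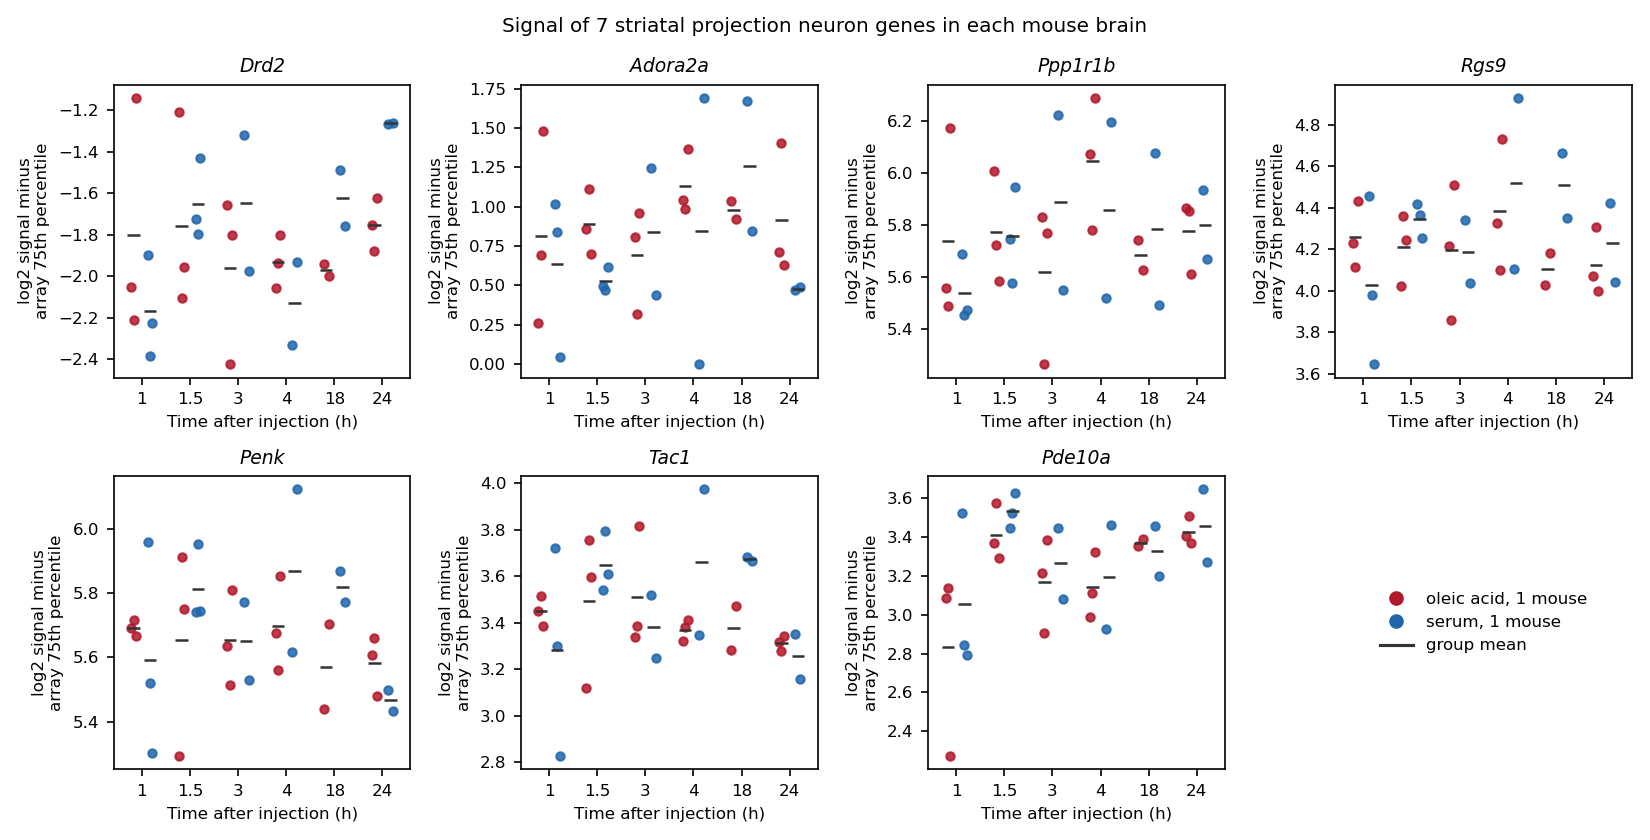
Signal of the 7 genes in each of the 31 brains (log2 processed signal minus the log2 of the array 75th percentile) against hours after injection, oleic acid mice left of serum mice, with group means as bars. Most groups overlap at most times, and mice of 1 group lie as far apart as 1.69 for Adora2a in serum mice at 4 h.

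No member differed between oleic acid and serum brains past the test at any time. Limma's adjusted p over all 25203 genes lay between 0.686 and 0.999 in the 42 comparisons of 7 genes at 6 times, and 0 of 42 had an unadjusted p under 0.05, beside 4.84%, 5.29%, 4.85%, 3.04%, 7.28% and 6.58% of all genes at the 6 times in order. The differences ran from -0.49 for Drd2 to 0.44 for Adora2a, both at 24 h, with 18 positive and 24 negative, and each of the 7 genes had both signs across the times. The 95% intervals reached from -1.21 to 1.28, so changes of somewhat over 2-fold at a single time were not excluded for Adora2a, the most variable gene. Nor were they for Drd2, whose intervals reached down to -1.01 at 18 h and -1.09 at 24 h. In bulk tissue, fewer cells of a type and less RNA per cell cannot be told apart.

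The background was as flat as the members. Of all genes tested, 0% passed at 1, 1.5, 3, 18 and 24 h and 0.00397%, a single gene, at 4 h, beside 0 of 7 members at each time. At 1 h, 6 of 7 members were higher in oleic acid mice, with a median difference of 0.18 (0.00 over all genes, 50.4% of which were higher). At 18 h, 6 of 7 were lower, with a median of -0.28 (-0.04 over all genes, 54.9% of which were lower). At 1.5 h 5 of 7 were lower, with a median of -0.12 (52.2% of all genes were lower). At 3, 4 and 24 h 4 of 7 were lower, with medians of -0.10, -0.05 and -0.03, beside 46.3%, 48.6% and 57.2% of all genes.

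**Figure D2:**
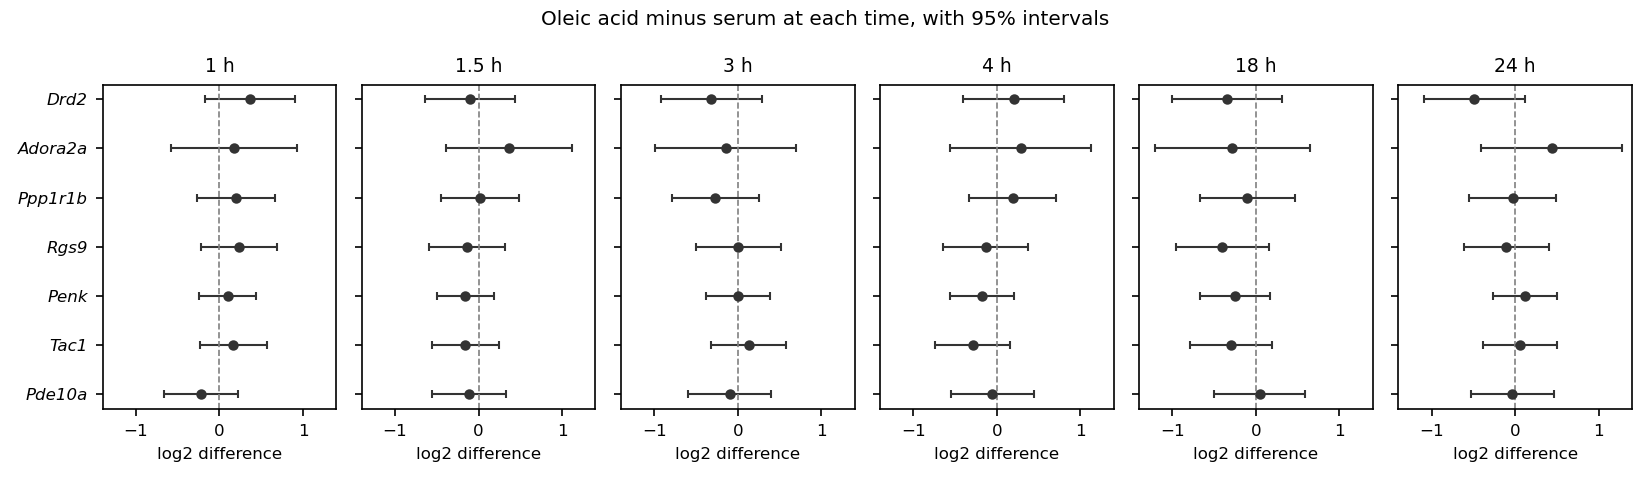
Oleic acid minus serum log2 differences of the 7 genes at each time (points) with 95% intervals from the fit over all groups (bars). Every interval crosses 0, and the widest are those of Adora2a, up to 1.28 at 24 h.

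Drd2 encodes the D2 dopamine receptor of indirect-pathway neurons, which lowers cyclic AMP. At 1 h Drd2 lay at -2.05, -2.21 and -1.14 in oleic acid mice, against -1.90, -2.38 and -2.22 in serum mice. At 1.5 h the values were -1.21, -2.11 and -1.95 in oleic acid mice, against -1.72, -1.80 and -1.43 in serum mice. The groups overlapped at both times, and single oleic acid brains, replicate 3 at 1 h and replicate 1 at 1.5 h, held the highest Drd2 values of the series. At 3 h Drd2 lay at -1.66, -2.42 and -1.80 in oleic acid mice, against -1.32 and -1.98 in serum mice. At 4 h it lay at -2.05, -1.94 and -1.80 in oleic acid mice, against -2.33 and -1.93 in serum mice. Both pairs of groups overlapped again.

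At the late times Drd2 was below serum in every oleic acid brain. At 18 h the oleic acid mice had -1.94 and -1.999, against -1.49 and -1.76 in serum mice. At 24 h they had -1.76, -1.88 and -1.62, against -1.27 and -1.26 in serum mice. The 24 h difference of -0.49 ± 0.29 (SE, n = 3 and 2) had the lowest unadjusted p of the 42, 0.107, with a limma adjusted p of 0.752. The early (1 to 4 h) minus late (18 and 24 h) oleic acid effect was 0.45 ± 0.25 for Drd2, with a limma adjusted p of 0.772; 0 of 7 members and 0% of all genes passed that interaction test. Drd2 also fell as array intensity rose (r = -0.67), a relation whose part in these values was not tested.

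Adora2a encodes the adenosine receptor that raises cyclic AMP in the neurons that carry the D2 receptor, and it was the most variable member, with an SD of 0.43 over the 31 arrays. At 1 h it lay at 0.26, 0.69 and 1.48 in oleic acid mice, against 1.02, 0.84 and 0.05 in serum mice. At 1.5 h it lay at 0.86, 1.11 and 0.70 in oleic acid mice, against 0.49, 0.47 and 0.62 in serum mice, where every oleic acid brain was above every serum brain. At 3 h it lay at 0.81, 0.32 and 0.96 in oleic acid mice, against 1.24 and 0.44 in serum mice. The serum pair at 4 h held both the lowest and the highest value of the series. At 4 h the oleic acid mice had 1.04, 0.98 and 1.36, against -0.0013 and 1.69 in serum mice. At 18 h they had 1.03 and 0.92, against 1.67 and 0.85 in serum mice, and at 24 h 0.71, 1.41 and 0.63, against 0.47 and 0.49 in serum mice. The groups were apart at 1.5 and 24 h, with differences of 0.36 ± 0.36 and 0.44 ± 0.41 (SE) and limma adjusted p of 0.939 and 0.805.

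Ppp1r1b encodes DARPP-32, the phosphatase inhibitor that integrates dopamine and adenosine signals in both projection neuron types. It ranged from 5.26 to 6.29 with a median of 5.77 in oleic acid mice, and from 5.45 to 6.23 with a median of 5.68 in serum mice. Its mean oleic acid effect over the 6 times was 0.00 ± 0.10 (SE), and its groups overlapped at all times. Rgs9 encodes the regulator of G-protein signalling that shortens dopamine and opioid receptor signals in striatum. At 1 h Rgs9 lay at 4.23, 4.11 and 4.43 in oleic acid mice, against 4.46, 3.98 and 3.65 in serum mice. At 4 h it lay at 4.32, 4.10 and 4.73 in oleic acid mice, against 4.11 and 4.93 in serum mice. Those groups overlapped, with the extremes of the series in serum mice. At 1.5 h Rgs9 lay at 4.02, 4.36 and 4.25 in oleic acid mice, against 4.42, 4.36 and 4.26 in serum mice. At 3 h it lay at 4.22, 3.86 and 4.51 in oleic acid mice, against 4.34 and 4.04 in serum mice, and at 24 h at 4.07, 4.31 and 4.00 in oleic acid mice, against 4.42 and 4.04 in serum mice. These groups overlapped as well. At 18 h the oleic acid mice had 4.03 and 4.18, both below the 4.67 and 4.35 of serum mice. That difference of -0.40 ± 0.27 (SE, n = 2 and 2) had a limma adjusted p of 0.686. Pde10a encodes phosphodiesterase 10A, which breaks down cyclic AMP and cyclic GMP in projection neurons. It ranged from 2.27 to 3.58 with a median of 3.32 in oleic acid mice, and from 2.79 to 3.64 with a median of 3.45 in serum mice. Its lowest value, in oleic acid 1 h replicate 3, stood below the next, 2.79 in serum 1 h replicate 3. That same brain held the highest Drd2 value and the lowest array intensity, 306.

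The neuropeptide genes followed each other. Penk encodes proenkephalin, the peptide precursor of indirect-pathway neurons, and Tac1 the substance P precursor of direct-pathway neurons. At 1 h Penk lay at 5.69, 5.72 and 5.67 in oleic acid mice, against 5.96, 5.52 and 5.30 in serum mice. Tac1 in the same brains lay at 3.45, 3.52 and 3.38 in oleic acid mice, against 3.72, 3.30 and 2.83 in serum mice. In the serum brains the order of the 3 mice was the same for both genes. At 1.5 h Penk lay at 5.29, 5.91 and 5.75 in oleic acid mice, against 5.74, 5.96 and 5.74 in serum mice. Tac1 lay at 3.12, 3.76 and 3.60 in oleic acid mice, against 3.54, 3.79 and 3.61 in serum mice. Oleic acid replicate 1 was the low brain and serum replicate 2 the high one for both.

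At 3 h Penk had 5.64, 5.51 and 5.81 in oleic acid mice, against 5.77 and 5.53 in serum mice. Tac1 had 3.34, 3.38 and 3.82 in oleic acid mice, against 3.52 and 3.25 in serum mice. At 4 h Penk had 5.68, 5.56 and 5.85 in oleic acid mice, against 5.62 and 6.12 in serum mice, and Tac1 3.32, 3.38 and 3.41 in oleic acid mice, against 3.35 and 3.97 in serum mice. Serum 4 h replicate 2 was the highest of all 31 brains for Penk, Tac1, Rgs9 and Adora2a. At 18 h Penk had 5.44 and 5.70 in oleic acid mice, against 5.87 and 5.77 in serum mice. Tac1 had 3.28 and 3.47 in oleic acid mice, against 3.68 and 3.67 in serum mice. Both were lower in every oleic acid brain, by 0.25 ± 0.20 and 0.30 ± 0.23 (SE), with limma adjusted p of 0.719 and 0.715. At 24 h Penk had 5.61, 5.66 and 5.48 in oleic acid mice, against 5.50 and 5.43 in serum mice, and Tac1 3.32, 3.28 and 3.34 in oleic acid mice, against 3.35 and 3.16 in serum mice. All groups overlapped at 24 h for both genes.

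In 7 of the 42 comparisons the groups did not overlap. At 18 h these were Drd2, Rgs9, Penk and Tac1, all lower, 4 of 7 members beside 29.5% of all genes, and 0 of 7 were above, beside 22.9%. The groups there hold 2 mice each. At 24 h Adora2a was above serum in every brain, beside 12.3% of all genes, and Drd2 below, beside 16.6%. At 1.5 h Adora2a was above, beside 4.29%, and 0 of 7 were below, beside 6.31%. At 1, 3 and 4 h 0 of 7 members had separate groups, where the shares over all genes above and below were 4.11% and 5.79%, 10.1% and 7.66%, and 9.47% and 8.68%. At 18 h slide and treatment cannot be told apart, since both oleic acid arrays lay on 1 slide and both serum arrays on another. Serum 18 h replicate 1 was also 1 of the 10 arrays low in cerebellum genes. Without it, the 18 h differences were -0.24 for Rgs9, -0.20 for Penk, -0.29 for Tac1 and -0.21 for Drd2. With slide as a fixed block, estimated through the other times, the 18 h differences of Rgs9, Penk and Tac1 were -0.03, 0.46 and 0.52, that of Drd2 was -0.93, and 0 passed.

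The mean oleic acid effect over the 6 times was small for every member. It was 0.14 ± 0.16 for Adora2a, -0.11 ± 0.12 for Drd2, -0.09 ± 0.10 for Rgs9, -0.08 ± 0.10 for Pde10a, -0.07 ± 0.09 for Tac1 and -0.06 ± 0.07 for Penk (SE). The limma adjusted p was 0.998 for each, and 0 of 7 members and 0% of all genes passed. The 95% intervals lay between -0.36 and 0.48. The F-test of any difference in the effect between times passed for 0 of 7 members and 0% of all genes, and treatment accounted for 0.24% to 3.54% of the members' variance over arrays.

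Time after injection was tested within each treatment, and here too no member passed. The share of all genes that passed was at most 10.5%, so 0 of 7 does not set the members apart. In oleic acid mice 0 of 7 members passed the F-test of time, beside 7.06% of all genes, and in serum mice 0 of 7, beside 10.5%. In oleic acid mice, 18 and 24 h against 1 and 1.5 h gave 0 of 7 beside 0.675%, and 3 and 4 h against 1 and 1.5 h gave 0 of 7 beside 1.11%. In serum mice, the same contrasts gave 0 of 7 beside 4.82%, and 0 of 7 beside 2.14%. Serum mice at 18 h against 4 h, whose arrays shared a slide, gave 0 of 7 beside 0.928%. The lowest adjusted p of the members was that of Drd2 in the F-test of time in serum mice, at 0.140 by limma (unadjusted p 0.0473). Among the single contrasts it was also Drd2 in serum mice, with a value higher by 0.47 ± 0.20 (SE) at 18 and 24 h than at 1 and 1.5 h, with an unadjusted p of 0.0332 and a limma adjusted p of 0.184. This was the only 1 of 91 single contrasts with an unadjusted p under 0.05, beside 22.2% of all genes in that contrast. In the other contrasts the share of all genes was 16.3% (serum, 3 and 4 h), 16.6% (oleic acid, 3 and 4 h), 13.5% (oleic acid, 18 and 24 h), 10.7% (serum, 18 against 4 h), 4.56% (mean oleic acid effect) and 5.86% (early minus late effect). The same contrast in oleic acid mice was -0.08 ± 0.19 for Drd2, and the groups of serum mice at 18 and 24 h lay on several slides.

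Among 37 of 38 other striatal genes measured, 0 passed in any oleic acid comparison. At 1 h 28 of the 37 were higher in oleic acid mice, with a median of 0.13 (0.00 over all genes, 50.4% of which were higher). At 18 h 29 were lower, with a median of -0.15 (-0.04 over all genes, 54.9% of which were lower). The lowest adjusted p of these genes by limma were 0.924 and 0.671. At 18 h slide and treatment cannot be told apart for these genes either. Chrm4, the M4 muscarinic receptor of direct-pathway neurons, had the largest positive differences of the list at 1 and 1.5 h, 0.52 ± 0.22 and 0.66 ± 0.22, and a difference of -0.57 ± 0.24 at 3 h (SE), with limma adjusted p of 0.924, 0.770 and 0.938. Pdyn, the dynorphin precursor, and Adcy5, the main striatal adenylyl cyclase, had -0.55 ± 0.26 and -0.51 ± 0.25 at 18 h, both with a limma adjusted p of 0.671. Drd1, listed as Drd1a on the array, the D1 receptor, had -0.04 ± 0.23 there.

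Time contrasts gave 3 calls among the other striatal genes. In serum mice, Gpr6, an orphan receptor of indirect-pathway neurons, lay at 0.22 and -0.00046 at 18 h and at 0.43 and 0.36 at 24 h. At 1 and 1.5 h it lay between -0.63 and -0.0056, so the early and late ranges nearly met. It was higher by 0.52 ± 0.13 (SE) at the late times, with a limma adjusted p of 0.0302. In the same contrast Meis2, a homeobox factor of striatal neurons, lay between 2.32 and 2.40 late, against 2.62 to 3.07 early, a difference of -0.47 ± 0.13 with a limma adjusted p of 0.0452. These were 2 of 37, or 5.41%, beside 4.82% of all genes. In oleic acid mice Chrm4 lay between -3.38 and -2.62 at 3 and 4 h, against -2.57 to -2.04 at 1 and 1.5 h, a difference of -0.66 ± 0.15 with a limma adjusted p of 0.0373, 1 of 37 beside 1.11% of all genes. These calls depended on the processing: of 42 alternatives, Gpr6 passed in 30, Chrm4 in 29 and Meis2 in 17, all with the same sign. With slide as a fixed block none passed, with limma adjusted p of 0.986 for Gpr6 and Meis2 and 0.99985 for Chrm4, nor with slide as a random block, at 0.218, 0.206 and 0.223. Gpr6 in the oleic acid contrast of 3 and 4 h had -0.28 ± 0.12 and a limma adjusted p of 0.240. Whether the serum change in Gpr6 differed in oleic acid mice, where it was 0.03 ± 0.13, was not tested as such.

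Between individual brains, however, the members moved together. Pearson's r was above 0 in 20 of the 21 pairs over the 31 arrays, and ranged from -0.05 for Drd2 with Penk to 0.91 for Penk with Tac1, with a median of 0.38. In the 21 arrays of higher cerebellum signal the median r of the pairs was lower, at 0.26. The median r of the members with all other genes was 0.03, with quartiles of -0.21 and 0.28. A 2-sided permutation test with 100000 resamples, adjusted by Benjamini-Hochberg over the 21 pairs, passed 10 pairs by r and 13 by Spearman's rho, all 10 positive. The share of pairs of other genes that pass the same test is not given here, so these counts do not set the members apart. These genes were picked as markers of 1 cell class with earlier results of these data known, so the p-values describe the strength of each pair in these brains.

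Penk with Tac1 was the closest pair. Their r was 0.91 and rho 0.90 (permutation p = 1e-05 each, the smallest that the resamples can give, adjusted p = 5.25e-05 and 0.000105). Without the 2 arrays farthest from the median of Penk the r was 0.88. It was 0.92 with group means removed, 0.90 with slide means removed, 0.89 in the 21 arrays of higher cerebellum signal and 0.89 in the 10 others. Of all 25203 genes, Tac1 was the one most like Penk, and Penk the one most like Tac1. The peptides belong mainly to opposite pathways, so the closest pair of the 7 crosses the types.

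**Figure D3:**
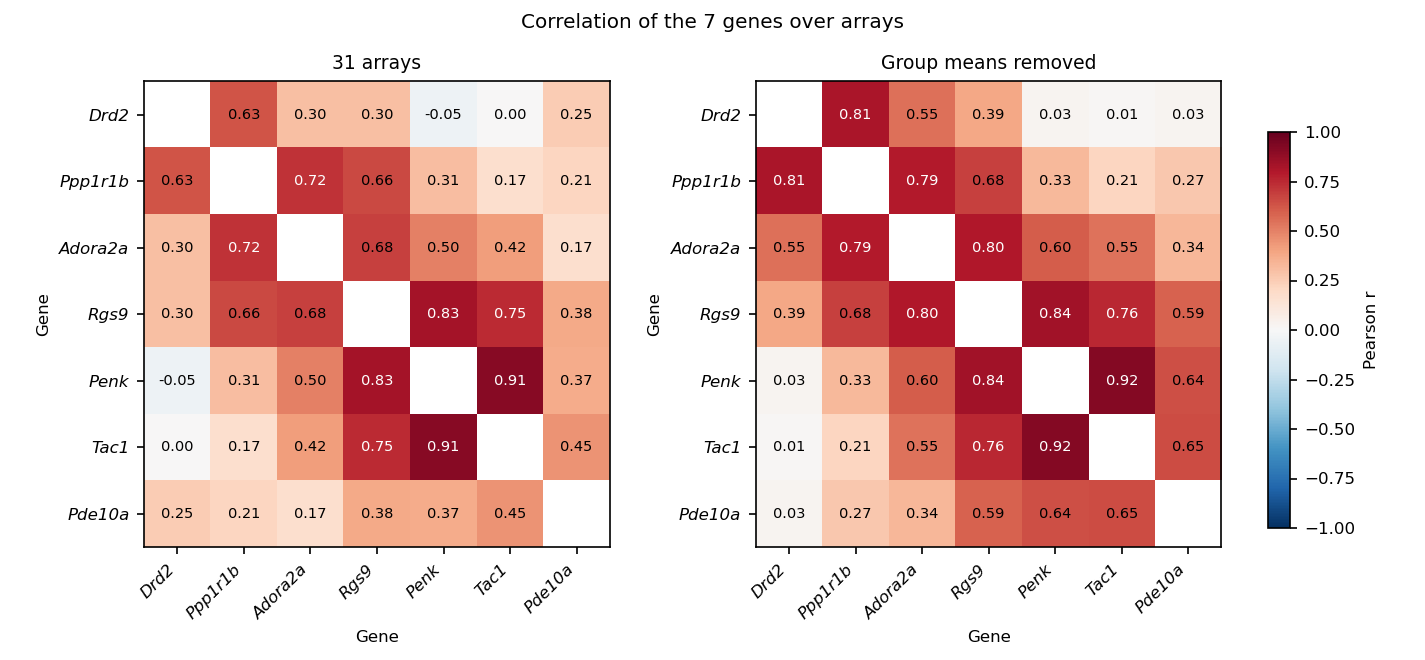
Pearson's r of each pair of the 7 genes over the 31 arrays (left) and after subtracting the mean of each of the 12 groups (right). Rgs9, Penk and Tac1 are high with each other, up to 0.91 on the left, and Ppp1r1b is high with Drd2 and Adora2a. Rgs9 is also high with Adora2a (0.68 left, 0.80 right) and Ppp1r1b (0.66 left, 0.68 right), so the genes do not split into separate blocks. Drd2 is near 0 with Penk and Tac1.

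Rgs9 joined the peptides. With Penk its r was 0.83 and rho 0.82 (permutation p = 1e-05 each, adjusted p = 5.25e-05 and 0.000105), and 0.74 without the 2 farthest arrays. With Tac1 its r was 0.75 and rho 0.73 (permutation p = 1e-05 and 2e-05, adjusted p = 5.25e-05 and 0.00014), and 0.58 without those arrays. Both held with group means removed, at r = 0.84 and 0.76, and in the 21 arrays, at 0.73 and 0.67. The r between other members and Pde10a was lower: 0.45 with Tac1 (permutation p = 0.0122, adjusted p = 0.0285, rho 0.49 with adjusted p = 0.0144), 0.35 without the 2 farthest arrays, and 0.65 with group means removed. In the 21 arrays it was 0.31, with an adjusted p of 0.342, and did not pass. By Spearman's rho Pde10a also passed with Rgs9 (0.52), Penk (0.48), Ppp1r1b (0.44) and Drd2 (0.43), but not with Adora2a (0.28). Their adjusted permutation p were 0.00795, 0.0154, 0.0236, 0.0264 and 0.168. With 1 array left out, the r of Pde10a rose to at most 0.65 with Drd2, 0.59 with Rgs9 and 0.52 with Ppp1r1b. Over the 31 arrays these were 0.25, 0.38 and 0.21. Leaving out oleic acid 1 h replicate 3, the lowest Pde10a brain, raised the number of passing pairs to 15.

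Drd2, Ppp1r1b and Adora2a formed a looser chain. Adora2a with Ppp1r1b had r = 0.72 and rho = 0.69 (permutation p = 2e-05 and 3e-05, adjusted p = 8.4e-05 and 0.000157), and 0.68 without the 2 farthest arrays. Adora2a with Rgs9 had r = 0.68 and rho = 0.54 (permutation p = 1e-05 and 0.00201, adjusted p = 5.25e-05 and 0.00603), 0.63 without those arrays, and 0.43 in the 21 arrays, where the adjusted p was 0.132. Ppp1r1b with Rgs9 had r = 0.66 and rho = 0.58 (permutation p = 6e-05 and 0.0008, adjusted p = 0.00021 and 0.0028). These pairs linked the receptor and signalling genes to Rgs9. Adora2a with Penk, at r = 0.50 (adjusted permutation p = 0.0106), and with Tac1, at 0.42 (0.0416), fell to 0.22 and 0.16 in the 21 arrays, with adjusted p of 0.574 and 0.691. Drd2 with Adora2a, its partner in indirect-pathway neurons, had only r = 0.30 (permutation p = 0.0953, adjusted p = 0.136), and 0.55 with group means removed. Drd2 with Penk, near 0 over the 31 arrays, had r = 0.04 in the 21 arrays and -0.73 in the 10 low in cerebellum genes.

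Drd2 with Ppp1r1b had r = 0.63 and rho = 0.64 (permutation p = 0.00015 and 0.0002, adjusted p = 0.00045 and 0.00084), and 0.81 with group means removed. Among all genes, Ppp1r1b ranked 1030 by r for Drd2, and Drd2 1931 for Ppp1r1b. Both genes also fell as array intensity rose. Against the log2 of the array 75th percentile, r was -0.67 for Drd2 and -0.63 for Ppp1r1b (rho -0.56 and -0.63, adjusted permutation p over 7 genes = 0.00035 and 0.000385), and -0.53 and -0.58 without the 2 farthest arrays. The other 5 lay between -0.31 (Adora2a) and 0.23 (Tac1), with adjusted p of 0.217 or more, and the differences between genes were not tested. With intensity regressed out, a choice made after the data were seen, Drd2 with Ppp1r1b had r = 0.35 and an adjusted p of 0.0704. Penk with Tac1 stayed at 0.91, Rgs9 with Penk at 0.89 and Adora2a with Ppp1r1b at 0.71. Other pairs passed only then by r: Ppp1r1b with Penk at 0.56 and with Tac1 at 0.41, and Pde10a with Drd2 at 0.45 and with Rgs9 at 0.40. Their adjusted permutation p were 0.00244, 0.0357, 0.0233 and 0.0394.

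**Figure D4:**
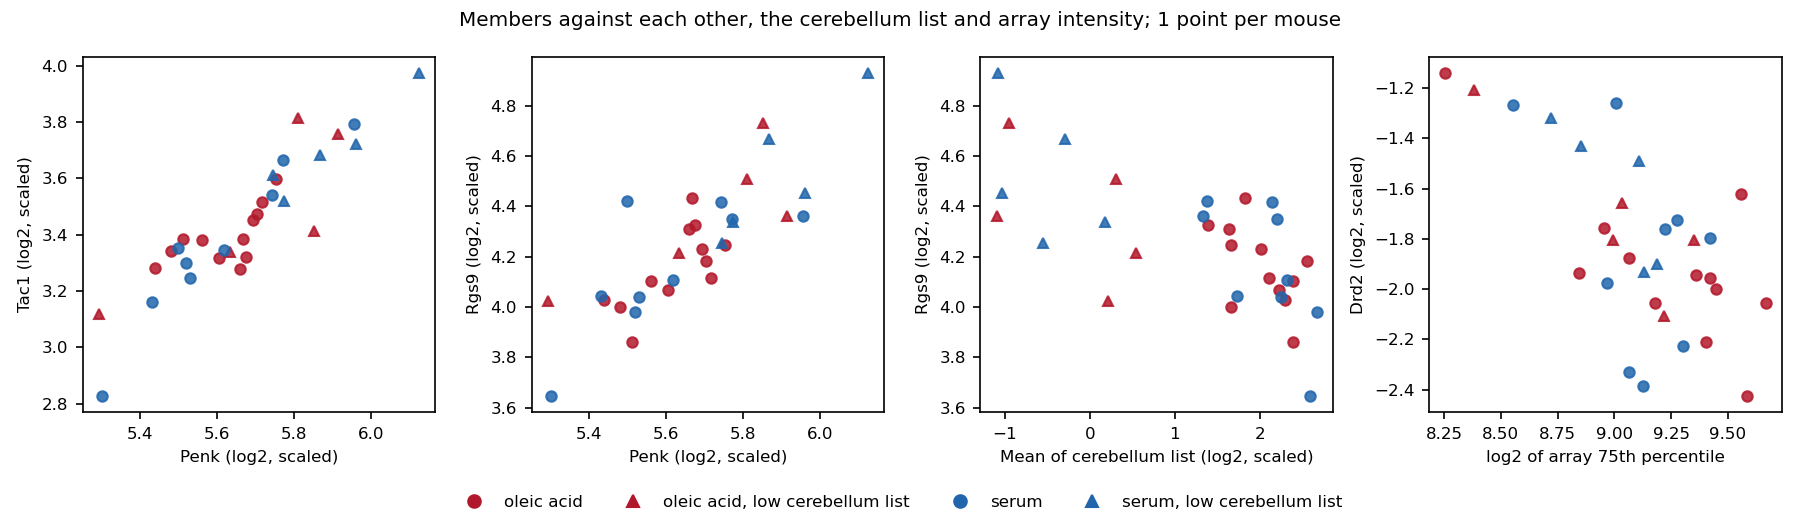
Single brains (points; triangles mark the 10 arrays low in cerebellum genes) with Tac1 against Penk, Rgs9 against Penk, Rgs9 against the mean of the cerebellum list, and Drd2 against the log2 of the array 75th percentile, all on log2 scales. The first pair lies along a line at r = 0.91, oleic acid and serum mice are mixed along each trend, and Drd2 is high where array intensity is low.

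Whether members moved with other brain regions was asked with 14 marker lists, which gave 98 relations, adjusted together. Over the 31 arrays 21 of 98 passed, 6 of them with the cerebellum list, and 9 passed in the 21 arrays of higher cerebellum signal. The mean of the other striatal genes ranged from 1.37 to 1.71 in oleic acid brains and from 1.39 to 1.75 in serum brains. It correlated with Rgs9 at r = 0.77 (rho 0.79), Penk at 0.74 (0.80) and Tac1 at 0.72 (0.74), each with an adjusted permutation p of 0.000245. In the 21 arrays the r were 0.76, 0.70 and 0.63, with adjusted p of 0.00425, 0.0114 and 0.0213. Ppp1r1b and Adora2a passed over the 31 arrays, at r = 0.59 and 0.52 (adjusted p = 0.00383 and 0.0127), but not in the 21, at 0.44 and 0.28 (adjusted p = 0.174 and 0.451). Drd2 and Pde10a had r = 0.46 and 0.11 in the 21 and passed in neither. One by one, 31 of the 37 other striatal genes had a positive r with the mean of the 7 members, beside 14313 of all 25203 genes. The median r was 0.45 (0.05 over all genes). Pdyn had 0.85, Gng7, the striatal G-protein gamma subunit, 0.82, Rasd2, the Rhes protein, 0.82 and Drd1 0.59. Ebf1, which marks direct-pathway neurons during development, went the other way at -0.80.

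Markers of other neurons moved with the members too. Cortex and hippocampus genes passed over the 31 arrays with Ppp1r1b at r = 0.66, above its 0.59 with the other striatal genes, with Rgs9 at 0.54 and with Drd2 at 0.52 (adjusted permutation p = 0.0007, 0.00986 and 0.0137). Pan-neuronal genes passed with Penk at 0.59 and Rgs9 at 0.54 (adjusted p = 0.00383 and 0.00986), though that of Rgs9 turned to -0.16 with quantile normalization and -0.15 in the deposited value table. In the 21 arrays none of these 5 passed, with r of 0.50, 0.53, 0.46, 0.37 and 0.20 in that order. Their part in the members' co-variation was not tested.

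Because the values of the cerebellum list fall in separate ranges, correlations with it were taken within each range. In the 21 arrays Rgs9 had r = -0.61 (rho -0.64, adjusted permutation p over 98 relations = 0.0344) and -0.52 without the 2 farthest arrays. Drd2 had -0.57 and Ppp1r1b -0.50 there, with permutation p adjusted over the 98 relations of 0.0658 and 0.115, and did not pass. Adjusted over the 14 relations of the 7 members in both ranges, Drd2 passed by r, at 0.0486, but not by rho, at 0.0552. By that adjustment Rgs9 had 0.0435 and 0.0294, and Ppp1r1b 0.0750 and 0.0681, which did not pass. In the 10 low arrays Drd2 had the opposite sign, at r = 0.64 (rho 0.64, and 0.95 without the 2 farthest arrays), and Ppp1r1b was near 0 at -0.05. Penk had -0.69 there, and the other 4 lay between -0.59 and -0.39. None of the 7 passed in the 10 arrays, with permutation p adjusted over 14 relations of 0.0567 for Penk, 0.147 for Drd2 and higher for the others. The median of Rgs9 was 4.41 in the 10 arrays low in cerebellum genes and 4.11 in the other 21, that of Penk 5.83 and 5.62, and that of Ppp1r1b 5.98 and 5.61. The scale is relative to each array's 75th percentile, so values of different transcripts on 1 array are not independent; the part of the cerebellum signal in the members' co-variation was not tested beyond the values within the 21 arrays.

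**Figure D5:**
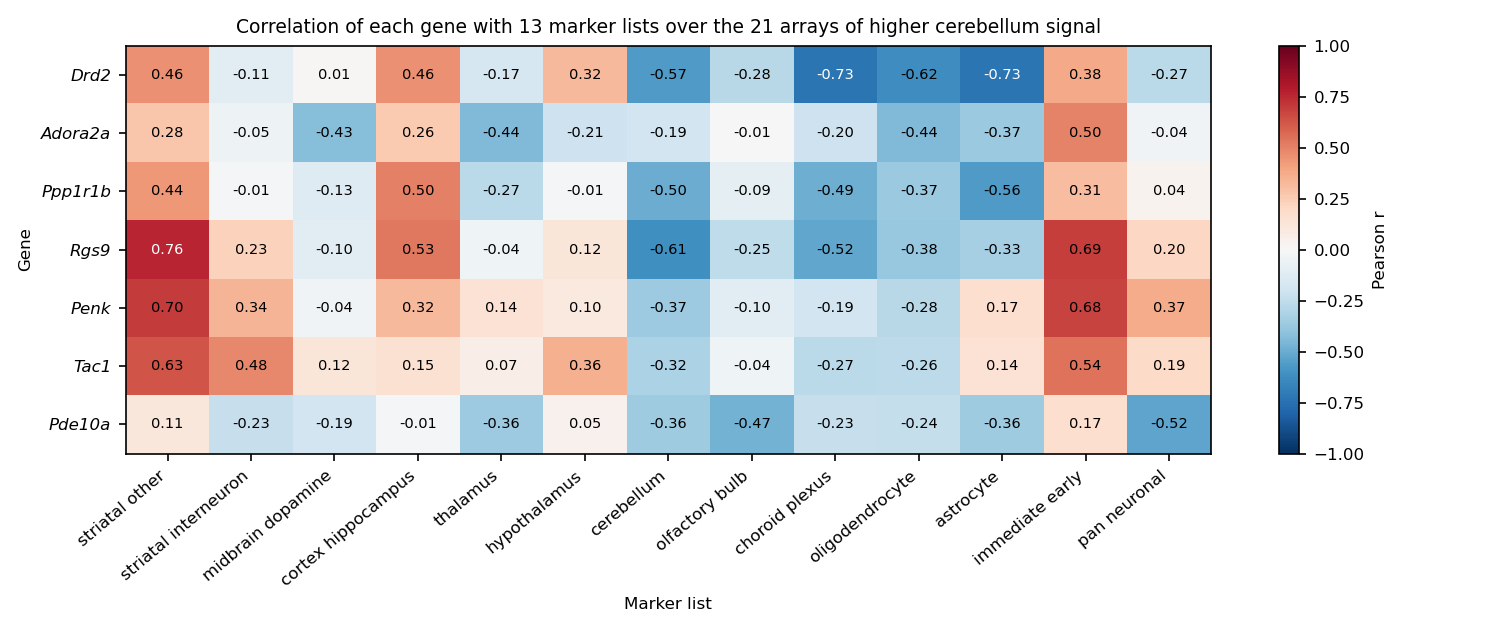
Pearson's r of each gene with the mean of 13 marker lists over the 21 arrays of higher cerebellum signal; the pituitary list, whose values fall in separate ranges, is left out. Rgs9, Penk and Tac1 are high with the other striatal genes (0.63 to 0.76). Drd2 is low with astrocyte and choroid plexus genes (-0.73 each) and with oligodendrocyte genes (-0.62).

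Drd2 and Ppp1r1b ran opposite to astrocyte genes, and Drd2 to choroid plexus genes. With the mean of 8 astrocyte genes Drd2 had r = -0.76 and rho = -0.74 over the 31 arrays (adjusted permutation p = 0.000245), and with 10 choroid plexus genes -0.71 and -0.68 (adjusted p = 0.00049). In the 21 arrays both were -0.73, with adjusted p of 0.00425. Drd2 also ran opposite to oligodendrocyte genes in the 21 arrays, at r = -0.62 (adjusted permutation p = 0.0344). Over the 31 arrays that r was -0.37 and did not pass (adjusted p = 0.107). Ppp1r1b with astrocyte genes had r = -0.57 and rho = -0.60 over the 31 arrays (adjusted p = 0.00874 and 0.00294), -0.87 with group means removed, against -0.77 for Drd2, and -0.56 in the 21 arrays, where it did not pass (adjusted p = 0.0658). With scaling to the array median this r of Ppp1r1b over the 31 arrays turned to 0.092. The astrocyte mean lay between 2.78 and 3.09 in oleic acid brains and between 2.71 and 3.13 in serum brains, and the choroid plexus mean between -0.03 and 0.73 in oleic acid brains and between 0.11 and 0.70 in serum brains. Their part in the Drd2 and Ppp1r1b values was not tested. With intensity regressed out the r of Drd2 with astrocyte and choroid plexus genes were -0.65 and -0.72. Immediate early genes, which neurons switch on with activity, moved with Rgs9 and Penk in the 21 arrays, at r = 0.69 and 0.68 (adjusted permutation p = 0.0114 each), and over the 31 arrays at 0.52 (adjusted p = 0.0133) and 0.40 (adjusted p = 0.0787). Without the 2 farthest arrays the r over the 31 were 0.35 and 0.26.

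The nearest genes among all 25203 were read by r over the 31 arrays, as a description. For Penk they were Tac1 (0.91), Gnal, the olfactory-type G-protein alpha subunit of striatum (0.89), Ldb2 (0.87), Ngef (0.87) and Syne1 (0.86). For Tac1 they were Penk, Ptpn5, the striatum-enriched phosphatase STEP (0.86), Pdyn (0.84), Pakap (0.83) and Slc2a13 (0.82). For Rgs9 they were Ngef (0.91), Inf2 (0.91), Pdyn (0.90), Disp3 (0.89) and Prkar2b (0.89). The peptide genes and Rgs9 thus had Gnal, Ptpn5 and Pdyn, all on the list of striatal genes, among their nearest. For Ppp1r1b they were Palm (0.96), Clip2 (0.93), Caly (0.93), Syp (0.93) and Ly6e (0.93), and none of those is on that list. For Drd2 they were Nova2 (0.89), Nwd1 (0.87), Men1 (0.86), C1ql2 (0.84) and Nudt5 (0.84). Nova2 is a neuronal splicing factor. For Adora2a they were C1qc (0.82), Tbc1d25 (0.82), Efhd2 (0.81), Gtpbp6 (0.81) and Camk2a (0.81). For Pde10a they included Ankk1 (0.78), Dmtn (0.75), Cap1 (0.75) and Htr1d (0.71). The highest for the mean of the 7 members were Cx3cl1 (0.87), Disp3 (0.86), Vgf (0.86), Pdyn (0.85), Tmem44 (0.85), Rgs14 (0.84), Sst (0.84), Dynll1 (0.84), Krt9 (0.83) and Ptpro (0.83). The lowest were Atoh7 (-0.88), Lhfp (-0.86), Phykpl (-0.86), Jaml (-0.84) and Pax3 (-0.83).

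The 250 bases before the start of Tac1 and Rgs9, which moved together, and of Drd2, which had r = 0.00 with Tac1, are printed from the RefSeq table on GRCm38.p6, 5′ to 3′ in the direction of the gene. They lie at chr6:7554811-7555060 (plus strand), chr11:109298182-109298431 (minus) and chr9:49340153-49340402 (plus). Capitals mark TGACG, the core of the cyclic AMP response element, on either strand (CGTCA on the other).
Tac1: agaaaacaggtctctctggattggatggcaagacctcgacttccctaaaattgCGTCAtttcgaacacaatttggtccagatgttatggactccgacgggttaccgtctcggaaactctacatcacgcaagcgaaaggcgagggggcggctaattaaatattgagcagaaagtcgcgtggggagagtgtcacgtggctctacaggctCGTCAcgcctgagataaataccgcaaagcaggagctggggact
Rgs9: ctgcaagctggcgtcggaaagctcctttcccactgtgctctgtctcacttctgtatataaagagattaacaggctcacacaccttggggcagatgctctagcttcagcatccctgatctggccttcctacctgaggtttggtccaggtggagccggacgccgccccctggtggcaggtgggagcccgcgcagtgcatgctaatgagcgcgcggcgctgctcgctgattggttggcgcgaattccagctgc
Drd2: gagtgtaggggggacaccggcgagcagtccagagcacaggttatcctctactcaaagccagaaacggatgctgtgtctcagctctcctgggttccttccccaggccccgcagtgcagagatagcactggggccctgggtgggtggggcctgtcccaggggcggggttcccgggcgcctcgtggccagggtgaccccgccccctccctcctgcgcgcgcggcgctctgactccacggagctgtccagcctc
The Tac1 stretch held the core at 2 places, beginning at -197 and -43 from the start, and those of Rgs9 and Drd2 at none. Of 32851 such stretches in the table, 17.8% held it. The full palindrome TGACGTCA, which contains the core, stood in 1.55% of them and in none of the 3. The GC box GGGCGG, on either strand, stood in all 3 and in 32.7% of the table. Promoters of 4 of the 7 members were in the table.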

How the data were processed

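Per the submitters' processing notes, the authors extracted the Cy3 arrays with Agilent Feature Extraction 10.5.1.1. The deposited array files hold intensity per spot, background-subtracted by that software and not normalized between arrays. The authors' series table, deposited as log2 values whose columns have nearly the same median, was used as an alternative. The gIsWellAboveBG, saturation and uniformity flags of the deposited files, of unit 0 or 1, served as filters.

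Processed intensity was scaled to each array's 75th percentile over 59305 non-control spots and log2-transformed. At most 107 non-uniform spots an array were set to missing, and 0 were saturated. Probes well above background on every array of a group (35652 of 55681) and measured on all arrays (35498) were kept, and the probe of highest mean signal stood for each gene. The share of spots flagged well above background was 54.3% to 76.3%, and the number of arrays limits the precision.

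Limma 3.58.1 in R 4.3.3 fitted 12 group means (19 residual degrees of freedom), with Benjamini-Hochberg adjustment over 25203 genes and a threshold of 0.05 in 16 comparisons; it was tested on simulated data. Correlations used Python 3.11.15 with numpy 2.4.6. Array symbols were updated through RefSeq synonyms. The members and lists were chosen with earlier results of these data known. Named were the 7 members, striatal list genes that passed or ranked among the 4 largest differences of a comparison, Drd1, Pdyn, Gpr6 and Adcy5, the 5 genes most like each member, and the 10 highest and 5 lowest for the members' mean; Gng7, Rasd2 and Ebf1 were chosen after their values were seen. Some genes that this rule names are not reported here. Alternatives were background correction, scaling, filters, probe choice, slide and replicate blocks, and leaving out each array.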

Additional observations from a re-analysis of the deposited data

How the results depend on the processing

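In no alternative did any of the 7 genes pass the test in any of the 16 comparisons; over 3864 refitted member differences, 84 moved by more than their standard error, and the lowest adjusted p by limma was 0.0851 (0.0661 with the F-tests, for time in serum mice). The number of member pairs that passed was 10. It was 16 with scaling to the array median, 8 to 15 when single arrays were left out, and between 7 and 13 in the other alternatives. Of the 98 relations of members with marker lists 21 passed. That number was 42 with scaling to the array median, 32 with slide means removed, 33 by Spearman's rho and 9 without the 10 arrays low in cerebellum genes, a choice made after the data were seen; it was 20 to 29 when single arrays were left out. The median scale differs from the percentile scale by 3.10 to 3.74 from array to array (mean 3.51 in oleic acid and 3.55 in serum mice). The part of this difference in the counts was not tested. Rgs9 with pan-neuronal genes went from called and positive to -0.16 with quantile normalization and -0.15 in the deposited value table, and Ppp1r1b with astrocyte genes from called and negative to 0.092 with scaling to the array median; the cause was not tested.

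Replicate numbers do not pair the mice: over 14 same-numbered pairs of oleic acid and serum arrays, deviations from group means correlated at -0.62 to 0.39, with 3 over 0.1. With the replicate block, 0 of 7 members passed in every comparison, and over all genes 0 passed at 1, 1.5, 3, 18 and 24 h and 1 at 4 h. Over all genes, the count at single times was at most 1 and became 158 at 1.5 h without serum 1.5 h replicate 3, 30 at 1 h without serum 1 h replicate 3, 58 at 24 h without serum 24 h replicate 2, and 30 at 1.5 h and 80 at 24 h with slide as a fixed block, none of them members. The time calls of Gpr6, Chrm4 and Meis2 kept their sign in all 42 alternatives, with differences of 0.32 to 0.58, -0.73 to -0.40 and -0.76 to -0.40, and passed in 30, 29 and 17.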
